A study of Mus musculus with 9 samples.

Results

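The Eph receptors, their ephrin ligands, the Slit ligands, the Robo receptors and the Slit-Robo GTPase-activating proteins (srGAPs) make up 32 genes of the 32661 that were counted, and they were taken by gene symbol from the tables of exonic plus intronic and of exonic counts. They comprise 9 EphA receptors, 5 EphB receptors, 5 ephrin-A ligands, 3 ephrin-B ligands, 3 Slits, 4 Robos and 3 srGAPs. Cells were taken from the ventral midbrain. The mice were VGAT-Cre:Ai14:Pitx3-GFP animals, in which Cre under the vesicular GABA transporter gene leaves tdTomato in cells that have expressed it and GFP marks cells that express Pitx3. All animals carried the 3 alleles, and the sort separated the groups. Cells with tdTomato filled 4 plates at E16 and 3 at P0 (VGAT plates), and cells with tdTomato and GFP filled 1 plate at each stage (VGAT+PITX3 plates). Brains of several litters were used at each stage, but the sources used here do not say which animals went to which plate, and p-values therefore measure the spread between plates, which may be technical.

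Ephs are receptor tyrosine kinases that meet membrane-bound ephrins on a neighbouring cell, and both the receptor-bearing and the ligand-bearing cell can respond, usually by withdrawing the contact. Ephrin-A ligands are held by a lipid anchor and ephrin-B ligands span the membrane. Slits are secreted proteins that repel growth cones and migrating neurons carrying Robo receptors, and srGAPs bind the inner part of Robo and shape the membrane and the actin beneath it. In the midbrain these families are known for steering the axons of dopamine neurons and for keeping axons and cell bodies away from the ventral midline.

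After filtering, 2034 of 3455 wells were kept, 1459 of them on VGAT plates, with 1435919 to 5408710 counts per plate. The P0 plates of VGAT cells stood apart in yield or depth. Replicate 1 kept 44 cells with a median of 33272 counts, and replicate 2 kept 219 with a median of 7043. Replicate 3 kept 171 cells with a median of 18198 counts. The VGAT E16 plates kept 190 to 304 cells with medians of 15608 to 22588 counts. The VGAT+PITX3 plates kept 304 cells at E16 and 271 at P0, with medians of 13866 and 7466 counts. The GABA neuron markers did not move as one: Gad1 lay at 798 to 1219 CPM (counts scaled to library size) on the VGAT plates and at 14.0 and 9.86 CPM on the VGAT+PITX3 plates, Gad2 at 494 to 632 and at 898 and 997 CPM, and Slc32a1 at 156 to 333 and at 216 and 272 CPM. The sums of 7 dopamine neuron markers were 63.4 to 144 CPM on the VGAT plates and 4027 to 5236 CPM on the VGAT+PITX3 plates. Tal1, Gata2 and Gata3, factors of the caudal GABA lineage, summed to 635 to 958 CPM on the VGAT plates and to 0.428 to 4.12 CPM on the VGAT+PITX3 plates, and 3 glutamate neuron markers to 1.85 to 24.0 and 104 to 201 CPM. Endothelial markers (8 genes) summed to 1.79 to 7.66 CPM on VGAT and 5.56 to 12.6 CPM on VGAT+PITX3 plates, microglial markers (6 genes) to 2.55 to 57.4 and 4.77 to 5.56 CPM, oligodendrocyte lineage markers (7 genes) to 46.9 to 93.6 and 54.3 to 76.2 CPM, and astrocyte and radial glia markers (8 genes, 5 to 8 of them found on a plate) to 202 and 229 CPM on the VGAT+PITX3 plates, 448 CPM on VGAT P0 replicate 2 and 43.2 to 63.0 CPM on the other 6 VGAT plates. The Dlx1 and Dlx2 sum ran from 4.19 to 182 CPM and Pax5 from 26.6 to 292 CPM among VGAT plates, so the mixture of neurons differed from plate to plate, and its part in the results below was not tested. The column names of the tables carry 2 plate labels, and for 4 of the 9 plates the second gives the other stage: VGAT E16 replicates 3 and 4 and VGAT P0 replicates 1 and 3. The first label, which is spelled as the sample titles, was used.

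Most of the family was expressed. In all, 25 of the 32 members had over 300 counts and were found on all 9 plates. The other 7 had under 60 counts on all plates together: Epha1 (9 counts), Epha2 (4), Ephb4 (8), Efna1 (3), Efna4 (20), Robo3 (53) and Robo4 (2). Robo4 is a receptor of endothelial cells and Ephb4 a receptor of veins, and the endothelial markers were low as given above. Robo3, which switches the response of crossing axons to Slit, had its highest level on the VGAT+PITX3 E16 plate, at 3.82 CPM. It lay at 0 to 3.20 CPM on the VGAT plates, where 3 counts on a plate are worth 0.555 to 2.09 CPM. A count of Robo3 was found in only 0.658% of the cells of the VGAT+PITX3 E16 plate. On VGAT E16 replicate 1 it was found in 4.21% of cells.

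The promoters of 4 members are shown because they give a receptor and a ligand for each direction of the difference between sorts: Epha5 (chr5:84417333-84417632, minus strand) and Slit2 (chr5:47982905-47983204, plus strand) were higher on the VGAT+PITX3 plates, and Ephb1 (chr9:102354644-102354943, minus strand) and Efnb2 (chr8:8661193-8661492, minus strand) were lower. Each runs from 250 bases before to 50 bases after a RefSeq start site (GRCm38.p6), 5′ to 3′ on the strand of the gene, and capitals mark matches on either strand to GATAA, the letters of GATA factors, to TATAAA, the TATA box, or to TAATCC, the letters of bicoid-class homeodomain factors such as Otx2 and Pitx3.
Epha5: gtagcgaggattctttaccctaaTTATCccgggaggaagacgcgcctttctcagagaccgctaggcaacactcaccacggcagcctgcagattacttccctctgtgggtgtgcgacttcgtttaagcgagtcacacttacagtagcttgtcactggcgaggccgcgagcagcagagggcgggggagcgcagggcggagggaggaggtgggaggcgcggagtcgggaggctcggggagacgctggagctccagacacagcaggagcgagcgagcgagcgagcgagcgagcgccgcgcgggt
Slit2: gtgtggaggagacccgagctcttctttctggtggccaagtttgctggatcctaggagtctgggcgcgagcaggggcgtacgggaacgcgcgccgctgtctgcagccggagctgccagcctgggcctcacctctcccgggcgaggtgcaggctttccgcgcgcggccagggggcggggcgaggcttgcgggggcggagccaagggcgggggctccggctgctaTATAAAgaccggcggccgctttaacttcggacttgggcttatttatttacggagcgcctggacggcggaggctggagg
Ephb1: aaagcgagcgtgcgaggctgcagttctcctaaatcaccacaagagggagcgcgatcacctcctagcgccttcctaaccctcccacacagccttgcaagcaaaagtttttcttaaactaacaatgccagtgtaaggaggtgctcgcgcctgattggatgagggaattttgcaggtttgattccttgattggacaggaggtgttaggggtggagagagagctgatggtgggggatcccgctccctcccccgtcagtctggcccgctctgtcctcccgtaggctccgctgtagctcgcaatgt
Efnb2: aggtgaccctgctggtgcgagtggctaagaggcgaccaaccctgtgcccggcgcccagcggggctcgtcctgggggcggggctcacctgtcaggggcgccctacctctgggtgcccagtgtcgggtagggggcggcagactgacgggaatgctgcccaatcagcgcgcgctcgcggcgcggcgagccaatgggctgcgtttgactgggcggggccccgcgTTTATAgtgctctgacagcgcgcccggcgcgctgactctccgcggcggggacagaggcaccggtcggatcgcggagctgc
Epha5 held 1 match to GATAA, Slit2 and Efnb2 held 1 match each to TATAAA, and Ephb1 held none. Of 35 promoters of 30 members, 5 (14.3%) held GATAA, 3 (8.6%) held TATAAA and 2 (5.7%) held TAATCC, against 25.4%, 13.6% and 7.1% of all 32851 promoters of this length. A match is a description of these letters and says nothing of binding.

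The first comparison set the VGAT+PITX3 plates against the VGAT plates, with stage as a covariate, to ask which guidance genes differ between neurons with a history of VGAT that also express Pitx3 and the other VGAT neurons. Of 26 members tested, 7 passed an adjusted p of 0.05 (edgeR quasi-likelihood test), where 8.96% of all 14624 genes tested did (4.74% higher and 4.22% lower on the VGAT+PITX3 plates). The receptors Epha5 and Epha6 and the ligand Slit2 were higher on the VGAT+PITX3 plates, and the receptors Epha7, Epha8 and Ephb1 and the ligand Efnb2 were lower. The values of the 2 groups did not overlap for 8 members, these 7 and Slit1, where 14.4% of all genes did not (7.60% higher and 6.82% lower). The median log2 fold change was -0.02 over the members and -0.00 over all genes. The astrocyte and radial glia marker sums were higher on both VGAT+PITX3 plates than on 6 of the 7 VGAT plates, as given above, and their part in these differences was not tested. Only 2 VGAT+PITX3 plates were made, 1 per stage, and the sums over a plate do not tell more expressing cells from more RNA per cell.

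**Figure D1:**
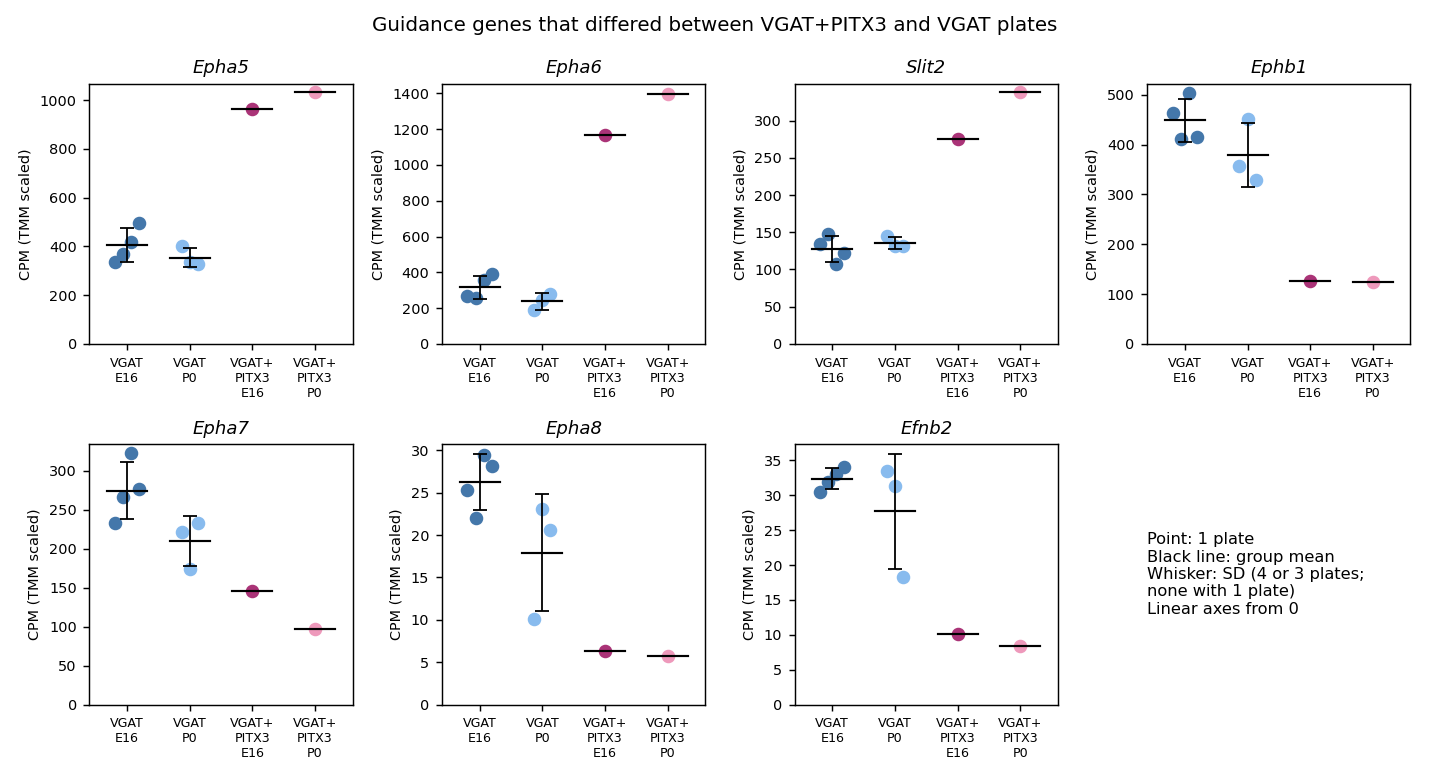
Levels of the 7 members that passed the test between sorts, in CPM with TMM scaling on linear axes from 0, with 1 point per plate, a line at the group mean and whiskers of 1 SD where a group has more than 1 plate. Epha6 rose from at most 389 CPM on the VGAT plates to 1169 and 1394 CPM on the VGAT+PITX3 plates, and Efnb2 fell to 10.1 and 8.37 CPM.

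Among EphA receptors, which bind mainly ephrin-A ligands, 2 rose and 2 fell of 7 tested. Epha5 (chr5:84054761-84417382, GRCm38, minus strand) was at 338, 369.5, 417 and 496 CPM on the VGAT E16 plates, 401, 336 and 327 CPM on the VGAT P0 plates, and 963 and 1032 CPM on the E16 and P0 plates of VGAT+PITX3 cells. Both VGAT+PITX3 plates lay above every VGAT plate, with a log2 fold change of 1.41 ± 0.14 (SE) and an adjusted p of 9.13e-06. Epha6 (chr16:59653483-60605531, minus strand) was at 268, 259, 355 and 389 CPM, at 189, 244 and 281 CPM, and at 1169 and 1394 CPM in the same order. This was the largest change of a member in this comparison, with a log2 fold change of 2.23 ± 0.18 (SE) and an adjusted p of 8.43e-07. Epha7 (chr4:28813131-28967499, plus strand), by contrast, was at 233, 266, 322 and 277 CPM and at 222, 173 and 233 CPM on the VGAT plates, and at 145 and 96.5 CPM on the VGAT+PITX3 plates. Its log2 fold change was -0.998 ± 0.16 (SE), adjusted p 0.000593.

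Epha8 (chr4:136929419-136956816, minus strand), a receptor of the embryonic midbrain, was at 25.4, 22.0, 29.4 and 28.1 CPM on the VGAT E16 plates, 10.1, 23.0 and 20.6 CPM on the VGAT P0 plates, and 6.29 and 5.73 CPM on the VGAT+PITX3 plates. The log2 fold change was -1.91 ± 0.30 (SE), adjusted p 0.000461. It was the only one of the 7 members that lost its call when a plate was left out: without the VGAT+PITX3 E16 plate its log2 fold change was -1.68 and its adjusted p 0.0689. The other EphA receptors tested, Epha3, Epha4 and Epha10, had log2 fold changes between -0.16 and 0.28 that did not pass.

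Ephb1 (chr9:101922128-102354693, minus strand), a receptor for ephrin-B ligands known from axons that turn away from the midline, was at 464, 412, 503 and 416 CPM on the VGAT E16 plates, 357, 450.5 and 329 CPM on the VGAT P0 plates, and 126 and 124 CPM on the VGAT+PITX3 plates. The VGAT mean was 3.35 times that of VGAT+PITX3, and the log2 fold change was -1.71 ± 0.16 (SE), adjusted p 4.69e-06. Ephb2, Ephb3 and Ephb6, the last of which lacks kinase activity, had log2 fold changes of 0.02, -0.27 and -0.30 that did not pass.

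The ligand Efnb2 (chr8:8617434-8661242, minus strand), which spans the membrane and is bound by EphB receptors and Epha4, fell with Ephb1. It was at 30.5, 31.95, 33.0 and 34.1 CPM on the VGAT E16 plates, 33.5, 31.3 and 18.3 CPM on the VGAT P0 plates, and 10.1 and 8.37 CPM on the VGAT+PITX3 plates. The log2 fold change was -1.66 ± 0.24 (SE), adjusted p 0.000243. Efnb1 and Efnb3 had log2 fold changes of 0.27 and 0.18, and none of the 3 ephrin-A ligands tested passed, with the lowest adjusted p, 0.214, at Efna5 (log2 fold change -0.58 ± 0.25).

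Among the secreted ligands, Slit2 (chr5:47983138-48307733, plus strand) was at 134, 147, 107 and 122 CPM on the VGAT E16 plates, 145, 131 and 131 CPM on the VGAT P0 plates, and 275 and 338 CPM on the VGAT+PITX3 plates. Its log2 fold change was 1.22 ± 0.12 (SE), adjusted p 9.09e-06. Slit1 (log2 fold change 0.32, adjusted p 0.261) and Slit3 (-0.55, adjusted p 0.560) did not pass. None of the receptors for Slit passed: Robo1 had a log2 fold change of -0.51 ± 0.34 (SE), Robo2 one of 0.40 ± 0.17 and Robo3 one of 1.41 ± 0.69, with adjusted p of 0.520, 0.199 and 0.295. Of the srGAPs, Srgap1 came closest with a log2 fold change of 0.36 ± 0.12 (SE) and an adjusted p of 0.0914, and Srgap2 and Srgap3 were both at -0.06.

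**Figure D2:**
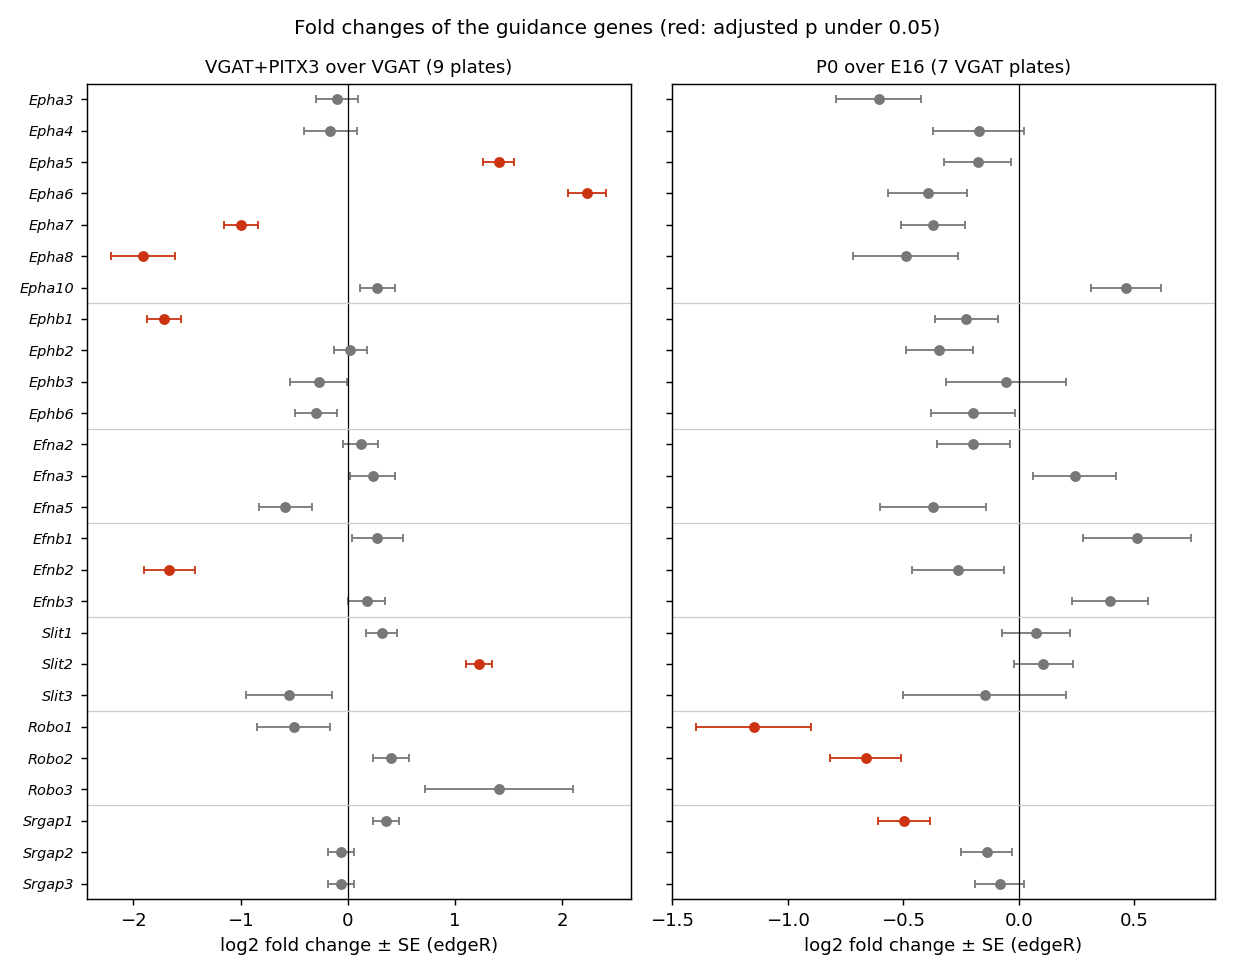
Log2 fold changes with their SE from edgeR for the tested members, by family from EphA receptors at the top to srGAPs at the bottom, between sorts at the left and between stages at the right, with red for an adjusted p under 0.05. At the left 3 members lie to the right of 0 and 4 to the left in red, and at the right Robo1, Robo2 and Srgap1 are red and left of 0.

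The shares of cells with a count of a member went the same way as the sums for the members below. Each cell was thinned to 4000 counts, which left out 78 cells. Epha5 was then found in 52.1% ± 4.95 (SD, n = 7 plates) of VGAT cells and in 87.1% and 89.3% of cells on the VGAT+PITX3 plates, and Epha6 in 43.6% ± 4.32 of VGAT cells and in 82.7% and 83.3%. Slit2 was found in 29.9% ± 5.16 of VGAT cells and in 56.2% and 56.6% of VGAT+PITX3 cells. Ephb1 went the other way, with 68.2% ± 6.43 of VGAT cells and 30.1% and 31.1% of VGAT+PITX3 cells, and Efnb2 was found in 10.2% ± 2.80 and in 1.61% and 3.68%. Without thinning, and so with the unequal depths given above, the Ephb1 shares were 91.6% ± 2.24 and 50.2% and 60.5%. Those of Epha5 were 77.3% ± 7.90 and 91.9% and 96.7%.

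Receptors were found in most cells. On the VGAT plates 92.2% ± 2.94 (SD, n = 7) of thinned cells had a count of an EphA receptor, 87.5% ± 3.96 of an EphB receptor and 92.0% ± 5.18 of a Robo. An ephrin-A ligand and an EphA receptor were found in the same cell in 55.3% ± 5.30 of VGAT cells and in 52.2% and 57.2% of cells on the VGAT+PITX3 plates. For an ephrin-B ligand and an EphB receptor the shares were 64.9% ± 4.67, and 50.5% and 53.0%. For a Slit and a Robo they were 41.8% ± 3.89, and 61.9% and 69.1%. Taken separately, any Slit was found in 47.1% ± 4.46 of VGAT cells and in 66.9% and 70.7% of VGAT+PITX3 cells, any ephrin-B ligand in 74.4% ± 7.72 and in 77.6% and 77.9%, and any EphB receptor in 68.9% and 69.1% of VGAT+PITX3 cells. The joint shares are not evidence that ligand and receptor go together. None of these shares was tested. Of the 32 members, 22 were found in at least 10% of VGAT cells and 19 in at least 10% of VGAT+PITX3 cells.

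The other genes of these pathways were taken from a list of 54 effectors, scaffolds, co-receptors and proteases, 52 of which were tested. Of these, 6 were higher and 4 lower on the VGAT+PITX3 plates (19.2%, against 8.96% of all genes), with a median log2 fold change of 0.11 against -0.00 over all genes. Ret, the receptor of GDNF family ligands that also acts with ephrin-A in motor axons, had the largest change, with 11.3 to 26.7 CPM on the VGAT plates and 233 and 354 CPM on the VGAT+PITX3 plates (log2 fold change 3.93, adjusted p 8.02e-10). Ngef, a guanine nucleotide exchange factor that acts below EphA receptors, lay at 19.2 to 55.0 CPM on the VGAT plates and at 13.5 and 12.8 CPM on the VGAT+PITX3 plates (log2 fold change -1.32, adjusted p 0.0107). Flrt3, a membrane protein that binds Robo1, was at 31.3 to 66.1 CPM and at 111 and 102 CPM (log2 fold change 1.10, adjusted p 0.00156).

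The second comparison asked which members change between E16 and P0 in VGAT cells. Of 25 members tested, 3 passed, all lower at P0, where 4.51% of all 13639 genes tested passed (2.74% higher and 1.77% lower at P0). The receptors Robo1 and Robo2 and the adaptor Srgap1, which acts below Robo, fell. A log2 fold change below 0 was found for 19 of the 25 members. The same held for 6666 of all 13639 genes and for 39 of the 52 pathway genes tested. The median over the members was -0.20 and that over all genes 0.01. The values of the 7 plates did not overlap for 5 members, where 20.7% of all genes did not (9.41% higher and 11.3% lower): Robo1, Robo2 and Srgap1 were lower at P0, and Epha10 and Efnb1 higher, with adjusted p of 0.0905 and 0.202.

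Robo1 (chr16:72308306-73046095, plus strand) was at 1195, 893, 1804 and 1785 CPM on the VGAT E16 plates and at 772, 684 and 446 CPM on the VGAT P0 plates. Every E16 plate lay above every P0 plate, with a log2 fold change of -1.15 ± 0.25 (SE) and an adjusted p of 0.0289. The plates with the most Robo1, VGAT E16 replicates 3 and 4, also had the most Pax5, at 292 and 202 CPM against 26.6 to 115 CPM on the other VGAT plates, and Robo1 was at 2283 and 3486 CPM in the Pax5 cells of these plates. VGAT P0 replicates 1 and 2 lay outside the E16 plates in median counts per cell (33272 and 7043, against 15608 to 22588). Replicate 3, with the lowest Robo1, lay within that range at 18198. Replicates 1 and 3 kept fewer cells (44 and 171) than any E16 plate. The part of the Pax5 cells and of this depth in the change was not tested. Robo2 (chr16:73891839-74411825, minus strand) was at 1077, 743, 1170.5 and 989.7 CPM at E16 and at 631, 554 and 678 CPM at P0, with a log2 fold change of -0.66 ± 0.15 (SE) and an adjusted p of 0.0356. Srgap1 (chr10:121780991-122047315, minus strand) was at 392, 377, 449 and 415 CPM at E16 and at 299.6, 289 and 269.6 CPM at P0, with a log2 fold change of -0.50 ± 0.11 (SE) and an adjusted p of 0.0337.

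**Figure D3:**
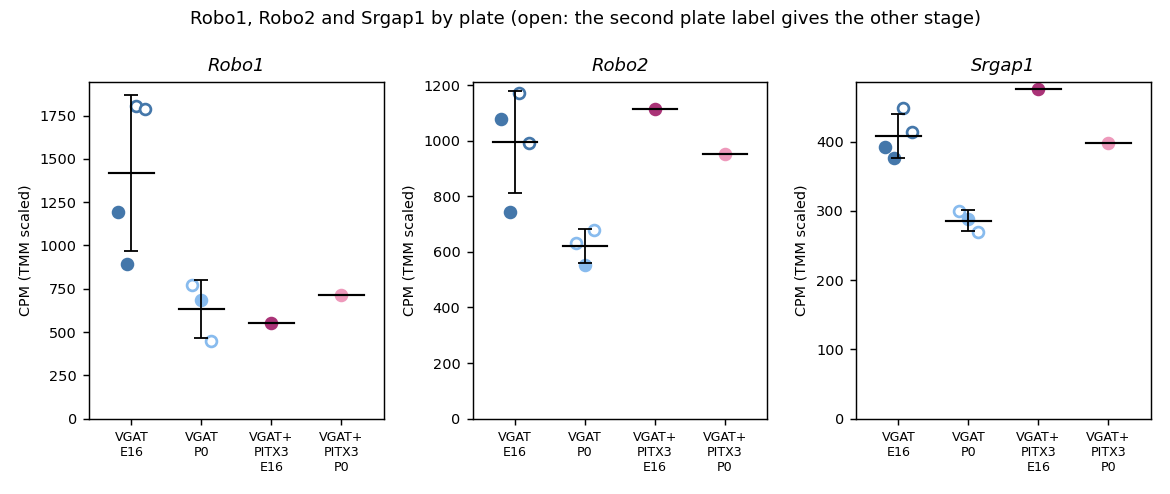
Robo1, Robo2 and Srgap1 in CPM with TMM scaling on linear axes from 0, with 1 point per plate, group means and SD, and open points for plates whose second label gives the other stage. All VGAT P0 plates lie below all VGAT E16 plates for each gene, with Robo1 at 446 to 772 CPM against 893 to 1804 CPM.

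These 3 calls were lost in several fits on fewer plates. No member passed when VGAT E16 replicate 3, VGAT E16 replicate 4, VGAT P0 replicate 2 (the plate with 448 CPM of astrocyte and radial glia markers) or VGAT P0 replicate 3 was left out, and 1 passed without VGAT E16 replicate 1 (Robo1). Without VGAT P0 replicate 1, 3 passed (Robo1, Srgap1 and Efna5, with Robo2 at an adjusted p of 0.0524), and without VGAT E16 replicate 2, 5 passed (with Epha3 and Efnb3 added). Over all genes these fits called 92, 130, 163, 75, 261, 771 and 830 genes in the order given, against 615 with all 7 plates. The log2 fold change of Robo1 lay between -1.32 and -0.95 over the 7 fits that left out a plate, that of Robo2 between -0.78 and -0.57 and that of Srgap1 between -0.54 and -0.45, with adjusted p of up to 0.0983, 0.109 and 0.111. On the 3 VGAT plates whose labels give 1 stage, with 1 plate at P0 that is assumed to vary like the others, no member passed (0 members, 768 genes in all), and Robo1 had a log2 fold change of -0.59 (adjusted p 0.114), Robo2 one of -0.70 (0.101) and Srgap1 one of -0.40 (0.157).

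By adjusted p, the next members between stages were Epha3, Epha10, Epha7 and Efnb3, and none passed. Epha3 had a log2 fold change of -0.61 ± 0.18 (SE) with an adjusted p of 0.0745, Epha10 one of 0.47 ± 0.15, Epha7 one of -0.37 ± 0.14 with an adjusted p of 0.127, and Efnb3, a ligand that marks the midline of the spinal cord, one of 0.39 ± 0.16 with an adjusted p of 0.164. No Slit and no ephrin-A ligand had an adjusted p under 0.347. Of 52 genes of the pathway list, 1 was higher and 3 lower at P0 (7.69%, against 4.51% of all genes), with a median log2 fold change of -0.20 against 0.01 over all genes. Chn2, a chimaerin of the type that acts below Eph receptors, had a log2 fold change of -0.66 (84.5 to 112 CPM at P0, 126 to 198 CPM at E16, adjusted p 0.0470). Sdc3, a heparan sulphate proteoglycan, had one of 0.59 (395 to 547 CPM, 289 to 379 CPM, adjusted p 0.0371), and Adam10, a protease that cuts ephrins, one of -0.50 (62.0 to 72.6 CPM, 87.8 to 106 CPM, adjusted p 0.0373).

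Whether the change with stage differs between the sorts was asked with an interaction term over the 9 plates. No member and no gene of 15724 passed (0.00%) with edgeR, where 997 genes had an unadjusted p under 0.05 and DESeq2 called 3 genes, no member among them. The smallest p among members was that of Robo1, which went from 552 CPM at E16 to 714 CPM at P0 on the VGAT+PITX3 plates while it fell on the VGAT plates (difference of log2 fold changes 1.54 ± 0.50 SE, adjusted p 0.772, and 0.000223 to 0.961 over the alternatives, the lowest without a filter on low counts). The VGAT+PITX3 plates, 1 per stage, are assumed to vary like the VGAT plates, which alone give the spread. Only large differences between the sorts could therefore pass, and the count of 0 does not show that the changes were alike. No change with stage could be tested in the VGAT+PITX3 cells alone.

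Among VGAT cells, the members were compared between cells with a count of Six3 and none of Pax5 or Otx2, of Pax5 and none of the others, and of Otx2 and none of the others, where Six3 and Pax5 mark different neurons of the substantia nigra pars reticulata and Otx2 marks neurons of the ventral tegmental area. Counts were summed per plate where at least 5 such cells were kept: 426 Six3 cells on 7 plates, 153 Pax5 cells on 5 plates and 102 Otx2 cells on 6 plates. The plate entered the fit as a block, and each of these sets can hold more than 1 kind of neuron. Of 24 members tested, 2 passed between Pax5 and Six3 cells, where 2.10% of all 9341 genes did (1.24% higher and 0.856% lower in Pax5 cells). Between Otx2 and Six3 cells 4 passed, where 2.89% of all genes did (1.84% higher and 1.05% lower in Otx2 cells), and between Otx2 and Pax5 cells 7 passed, where 3.97% did (2.02% higher and 1.95% lower). The median log2 fold changes over the members were 0.15, -0.23 and -0.36, and those over all genes -0.00, -0.00 and 0.00. Over the plates used, median counts per cell ran from 7408 to 41874 in Six3, from 7951 to 24082 in Pax5 and from 6472 to 16999 in Otx2 cells. On each of the 6 plates with both sets Otx2 cells had fewer counts than Six3 cells. The part of this depth in the differences was not tested. The 3 comparisons share cells, and their values are given side by side.

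**Figure D4:**
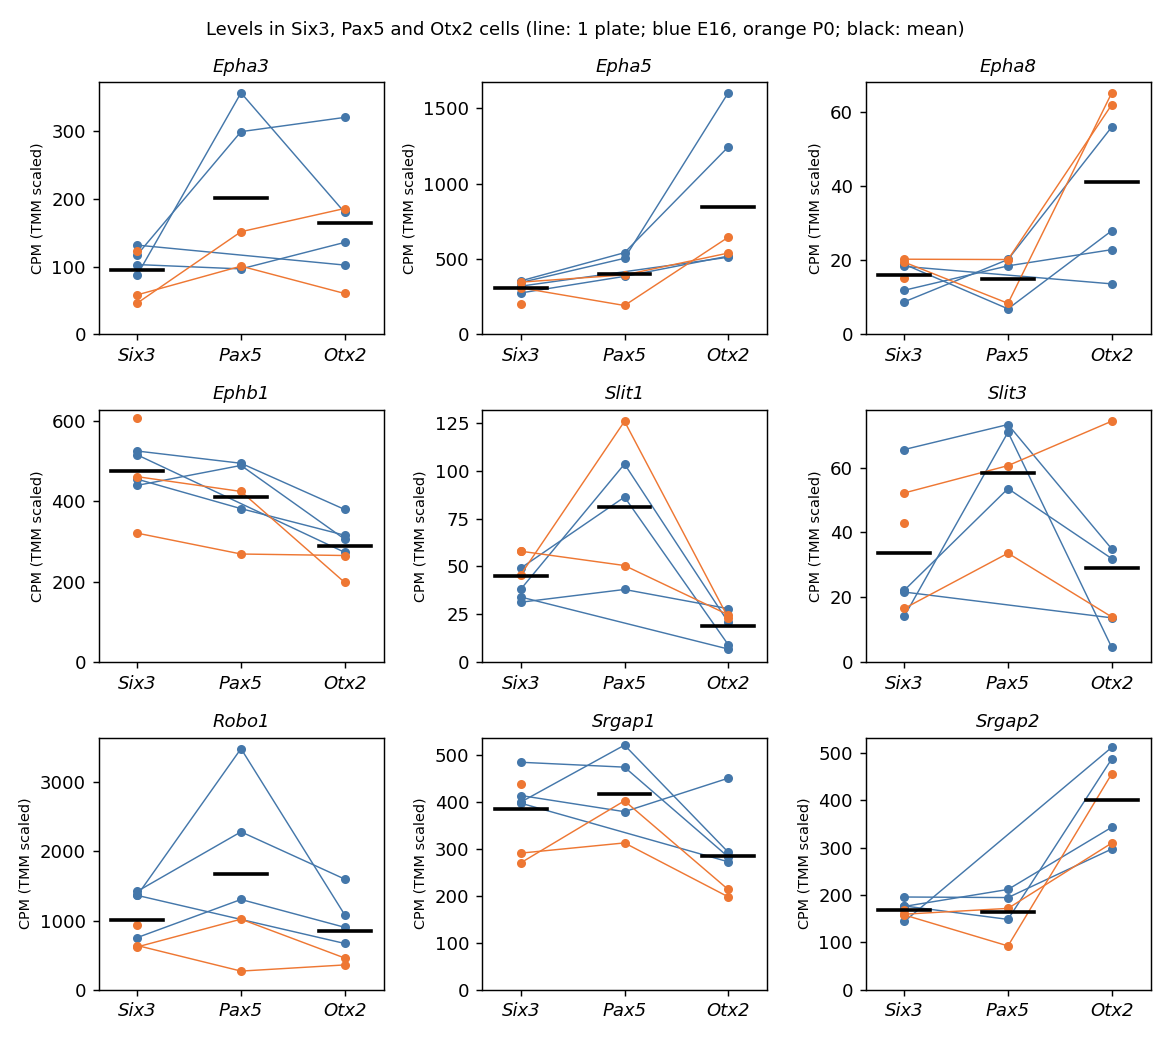
Levels of the 9 members that passed a test between cell sets, in CPM with TMM scaling on linear axes from 0, with a line joining the sets of 1 plate (blue E16, orange P0; a line that skips Pax5 is a plate without that sum) and a black bar at the mean. Srgap2 lies at 297 CPM or more in Otx2 cells of every plate and at 212 CPM or less in the other sets.

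Srgap2 and Epha5 were higher in Otx2 cells than in both other sets. Srgap2 (chr1:131285251-131527352, minus strand), an inverse-BAR protein that shapes neurites and synapses, was at 512, 487, 343, 297, 309 and 455 CPM in Otx2 cells, at 148, 212, 195, 172 and 92.3 CPM in Pax5 cells and at 144 to 196 CPM, with a median of 168 CPM, in Six3 cells. All Otx2 sums lay above all sums of the other sets. Srgap2 was higher in Otx2 than in Six3 cells on 6 of 6 plates (log2 fold change 1.24 ± 0.16 SE, adjusted p 4.93e-05) and higher than in Pax5 cells on 5 of 5 (1.21 ± 0.19, adjusted p 0.000331). It is the only member whose calls between cell sets held in every alternative tried, with log2 fold changes from 1.11 to 1.51 against Six3 cells and from 1.06 to 1.55 against Pax5 cells.

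Epha5, the receptor that was also higher on the VGAT+PITX3 plates, was at 512, 591 and 1599.9 CPM (lowest, median, highest) in Otx2 cells, at 385, 504, 542, 192 and 395 CPM in Pax5 cells and at 199, 320.1 and 355 CPM (lowest, median, highest) in Six3 cells. Its 2 highest Otx2 sums were those of VGAT E16 replicates 3 and 4. The log2 fold change was 1.26 ± 0.18 (SE) over Six3 cells, on 6 of 6 plates, and 1.03 ± 0.20 over Pax5 cells, on 5 of 5 plates, with adjusted p of 0.000166 and 0.00288. On the plates whose labels give 1 stage the adjusted p was 0.0613 and 0.246. Epha8 was at 13.6, 41.9 and 65.1 CPM (lowest, median, highest) in Otx2 cells against 8.81, 18.4 and 20.3 CPM in Six3 cells, from 65 and 127 counts in all, with a log2 fold change of 1.33 ± 0.34 (SE) and an adjusted p of 0.0313. Its adjusted p lay between 0.0142 and 0.121 over the fits that left out a plate, and the call was lost without VGAT E16 replicate 3, VGAT P0 replicate 2 or VGAT P0 replicate 3. Without VGAT E16 replicate 4 Epha8 was too low to be tested. The call was also lost with at least 3000 genes per well and on the plates whose labels give 1 stage. Over all alternatives the log2 fold change of Epha8 lay between 0.62 and 1.57, with adjusted p of up to 0.924.

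Ephb1 was lower in Otx2 cells, at 198, 289 and 379 CPM (lowest, median, highest), than in Six3 cells, at 320.4, 461 and 606 CPM. It was lower on all 6 shared plates (log2 fold change -0.61 ± 0.12 SE, adjusted p 0.00451). Of 16 alternatives, this call was lost only on the plates whose labels give 1 stage (adjusted p 0.0526). Against Pax5 cells, at 381, 494, 489, 424 and 269 CPM, Ephb1 was lower on all 5 shared plates (log2 fold change -0.49 ± 0.14 SE, adjusted p 0.0428).

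Slit1 and Slit3 were both lower in Otx2 than in Pax5 cells. Slit1 (chr19:41600257-41743665, minus strand) was at 38.0, 86.3, 104, 50.5 and 126 CPM in Pax5 cells, at 31.3, 45.8 and 58.2 CPM (lowest, median, highest) in Six3 cells and at 6.82, 22.1 and 27.9 CPM in Otx2 cells. Every Otx2 sum lay below every sum of the other sets. The Otx2 sums rest on 29 counts in all, with 1 count on the lowest plate, against 208 in Pax5 and 322 in Six3 cells. The log2 fold change was 0.87 ± 0.22 (SE) for Pax5 over Six3 cells (adjusted p 0.0371), -2.02 ± 0.32 for Otx2 over Pax5 cells (adjusted p 0.000351, lower on 5 of 5 plates) and -1.15 ± 0.32 for Otx2 over Six3 cells (adjusted p 0.0518). Slit3 (chr11:35121224-35708507, plus strand) was at 53.5, 70.9, 73.3, 60.6 and 33.6 CPM in Pax5 cells, and at 4.57, 22.9 and 74.3 CPM (lowest, median, highest) in Otx2 cells, the latter from 40 counts with 1 on the lowest plate. It was lower in Otx2 than in Pax5 cells on 4 of the 5 shared plates, by a log2 fold change of -1.32 ± 0.37 (SE) and an adjusted p of 0.0440, and higher in Pax5 than in Six3 cells on each of the 5 shared plates by 1.04 ± 0.28 (log2), which did not pass (adjusted p 0.0573). On the plates whose labels give 1 stage, Slit1 was at a log2 fold change of -0.90 for Otx2 over Pax5 cells (adjusted p 0.772). For Pax5 over Six3 cells the log2 fold change of Slit1 lay between 0.03 and 1.06 over 15 alternatives, and the call was lost in 7. Slit2 passed in none of the 3 comparisons.

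Epha3 (chr16:63543534-63864175, minus strand) was at 96.6, 299, 356, 151 and 101 CPM in Pax5 cells and at 46.4, 103 and 132 CPM (lowest, median, highest) in Six3 cells, higher on 4 of 5 plates (log2 fold change 1.10 ± 0.25 SE, adjusted p 0.0167). The highest Pax5 sums were those of VGAT E16 replicates 3 and 4, and without replicate 3 no member passed between Pax5 and Six3 cells (0 members), as with DESeq2 or on the plates whose labels give 1 stage. Without VGAT E16 replicate 4 Slit3 passed in place of Epha3 and Slit1, without VGAT P0 replicate 2 Slit1 alone, and without VGAT P0 replicate 3 Epha3 and Robo1.

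Robo1 was at 1305, 2283, 3486, 1019.9 and 269 CPM in Pax5 cells, at 358, 785 and 1599.9 CPM (lowest, median, highest) in Otx2 cells and at 619, 940.2 and 1423 CPM in Six3 cells, and it was lower in Otx2 than in Pax5 cells on 4 of 5 plates (log2 fold change -0.89 ± 0.23 SE, adjusted p 0.0259). Srgap1 was at 380, 475, 522, 313 and 403 CPM in Pax5 cells and at 198, 278 and 451 CPM (lowest, median, highest) in Otx2 cells, with a log2 fold change of -0.55 ± 0.15 (SE) and an adjusted p of 0.0439. Between Otx2 and Pax5 cells the counts of members called without 1 plate ran from 3 to 7, with 4 without VGAT E16 replicate 3, 3 without VGAT E16 replicate 4 and 4 without VGAT P0 replicate 2, and Slit1, Srgap2 and Epha5 were among those called each time. Robo1 was not called without VGAT E16 replicate 4 or VGAT P0 replicate 2 (adjusted p up to 0.235). Srgap1 was called only without VGAT E16 replicate 2 or VGAT P0 replicate 1. Ephb1 was called only without VGAT P0 replicate 1 or 3, and Slit3 only without VGAT P0 replicate 1 or 2. In the other fits the adjusted p of these 3 was up to 0.266, 0.233 and 0.248.

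Of the pathway list, 50 genes were tested between cell sets, and 1, 0 and 2 of them passed in the order above, against 2.10%, 2.89% and 3.97% of all genes. Ptpro, a phosphatase that acts on Eph receptors, was the only one that passed between Pax5 and Six3 cells (log2 fold change 1.01 ± 0.14 SE, adjusted p 0.000101), at 361, 662, 433, 414 and 319 CPM in Pax5 cells against 157 to 289.9 CPM in Six3 cells. It was lower in Otx2 than in Pax5 cells (log2 fold change -1.23 ± 0.15 SE, adjusted p 1.85e-05), as was Sdc3 (-0.46 ± 0.12, adjusted p 0.0292). None of the 50 passed between Otx2 and Six3 cells, where 3 had an unadjusted p under 0.05.

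In cells with other labels the levels were described without a test, as CPM of the set's own counts. Cells with Hoxb2, a gene of the hindbrain (28 cells on 4 plates), had Ephb1 at 413 to 758 CPM and Robo2 at 464 to 2416 CPM, and Epha5 at 86.2 to 194 CPM. In cells with Pax7 (77 cells on 4 plates), a gene of the rostral interpeduncular nucleus, Epha6 lay at 408 to 587 CPM and Slit2 at 181 to 264 CPM, and Robo2 at 439 to 546 CPM. Cells with Dlx1 or Dlx2 (227 cells on 6 plates), genes of forebrain and hypothalamic GABA neurons, had Efna5 at 374 to 654 CPM, against 121 to 379 CPM in cells with Nkx2-2 (532 cells on 7 plates). A cell can carry more than 1 of these labels.

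On the VGAT+PITX3 plates, cells with a count of Sox6 and none of Otx2 were taken (109 at E16 and 45 at P0). They were set beside cells with Otx2 and no Sox6 (27 and 26 cells). Sox6 was taken as a mark of dopamine neurons of the substantia nigra and Otx2 as one of the ventral tegmental area. In the paper Otx2 labels ventral tegmental GABA clusters and is less prominent in those that also carry dopamine markers. Otx2 lay at 27.3 and 17.5 CPM on the VGAT+PITX3 plates and at 64.6 to 114 CPM on the VGAT plates. Whether the Otx2 cells were dopamine neurons was not tested. With 2 plates no test was made. Of 20 members with at least 60 counts, 10 had both values higher in Sox6 cells and 5 had both lower. Of 7897 genes, 19.2% and 16.8% did, so 15 of 20 members did not overlap, against 36.0% of genes. With 2 values a side, sets can also separate by spread alone. The members were not matched to genes of like counts, and the depth of the 2 sets was not compared.

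**Figure D5:**
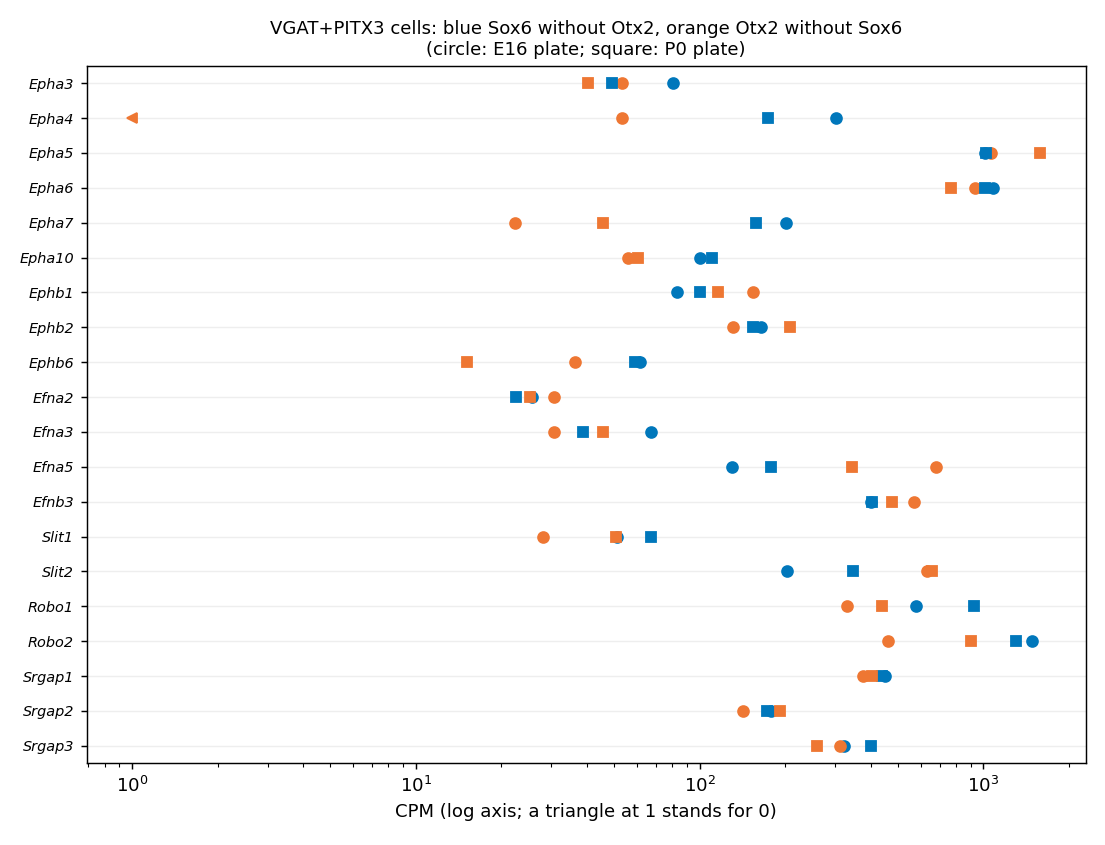
Levels in CPM on a log axis of the 20 members with at least 60 counts in Sox6 cells (blue) and Otx2 cells (orange) of the VGAT+PITX3 plates, with circles for E16 and squares for P0. Epha4 and Epha7 lie to the right in Sox6 cells, with Epha7 at 158 and 201 CPM against 22.4 and 45.6 CPM, and Efna5 and Slit2 to the right in Otx2 cells.

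The receptor Epha4, which binds ligands of both classes, was at 302 and 174 CPM in Sox6 cells of the E16 and P0 plates and at 53.2 and 0 CPM in Otx2 cells, the latter from 19 and 0 counts. Epha7 was at 201 and 158 CPM in Sox6 cells and at 22.4 and 45.6 CPM in Otx2 cells, from 8 and 9 counts. The ligand Efna5 showed the opposite order, with 129.7 and 178 CPM in Sox6 cells and 678 and 345 CPM in Otx2 cells. The repellent Slit2 was at 203 and 348 CPM in Sox6 cells and at 633 and 659 CPM in Otx2 cells, while its receptors were higher in Sox6 cells: Robo1 at 578 and 922 CPM against 330.3 and 441 CPM, and Robo2 at 1484 and 1299 CPM against 459 and 902 CPM. Epha5 and Epha6, which were higher on the VGAT+PITX3 than on the VGAT plates, were at 1011 and 1021 CPM and at 1079 and 1009 CPM in Sox6 cells, and at 1065 and 1583 CPM and at 936 and 765 CPM in Otx2 cells.

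The members differed widely in how many of their counts lay on exons. Over all genes 74.0% of counts were exonic. Epha6 had 1.19% exonic counts, 194 of 16363, Slit3 4.64%, Robo1 10.4%, Efna5 17.0%, Epha3 21.3%, Slit2 23.6%, Robo2 24.3% and Slit1 26.1%, and these are long genes of 143409 to 952049 bases. The other ligand genes with over 300 counts were mostly exonic, with 99.99% for Efnb3, 99.6% for Efna3, 99.1% for Efnb1, 93.6% for Efna2 and 87.0% for Efnb2, as was the receptor gene Epha8 with 99.1%. On exonic counts alone Epha6 still rose on the VGAT+PITX3 plates (log2 fold change 2.34, adjusted p 0.000302), Slit2 did as well (1.21, adjusted p 1.85e-05), and Robo1 fell at P0 (-0.94, adjusted p 0.0422), whereas Robo2 (-0.46, adjusted p 0.121) and Srgap1 (-0.34, adjusted p 0.0877) did not pass. Whether counting used the strand is not given in the sources used here. Gm4660, a pseudogene inside Epha6 on the same strand, had 855 counts of its own beside 16363 for Epha6, and no gene of the tables on the opposite strand of one of the 7 members called between sorts had more than 48 counts.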

How the data were processed

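Per the labels and the methods, the authors aligned reads to GRCm38 with STAR and counted molecular barcodes per gene and well, on exons, on introns and on both. The deposited tables hold expected counts, not scaled to depth: 51.7% of the non-zero values on exons plus introns were not whole, a form that a correction for molecules with the same barcode would give, although the sources used here do not describe one. The barcode length differs between the methods and the labels. A well entered the sums if it had 2000 or more genes, no more than 50000 counts and less than 15% mitochondrial counts. Spike-in (92) and mitochondrial (34) rows were removed.

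Summed counts per plate, or per plate and cell set (5 cells or more), were rounded. The quasi-likelihood test of edgeR 4.0.16 was run under R 4.3.3 after filterByExpr and TMM scaling. P-values were two-sided, adjusted over all genes by the method of Benjamini and Hochberg, and read at 0.05. Stage was a covariate between sorts, and the plate was a block between cell sets. Alternatives were DESeq2 1.42.0, RLE factors, no filter on low counts, exonic counts, 3000 genes per well as the minimum, no wells over 2 times the median count of their plate, 2 marker counts as the minimum, no plate block, the replicate number as a block, and each plate left out. Scripts were tested on simulated data. Gene positions come from GENCODE (GRCm38) and promoters from RefSeq (GRCm38.p6), which matched 30 of the 32 members.

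Plates held 1435919 to 5408710 counts, so that 3 counts of a gene equal 0.555 to 2.09 CPM, and lower levels are not resolved on a plate. Members with an adjusted p under 0.05 in a comparison, or with the smallest p where none had, are given with their values, and of the pathway list the 3 with the largest change among those that passed. Of its 54 genes, 53 were in the tables. The members and lists were chosen with earlier results of these data known. The intronic table and the gene annotation tables were not used here. Sums and figures were made with numpy 2.4.6, pandas 2.3.3 and matplotlib 3.10.9 under Python 3.11.15.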

Additional observations from a re-analysis of the deposited data

Results flagged for a closer look

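Among the 25 members with at least 60 counts, 1 had a plate far from the others of its group on the VGAT E16 plates, the only group with enough plates to look at. Srgap2 was at 182 CPM on VGAT E16 replicate 1 and at 210, 209 and 208 CPM on the other E16 plates. Chance alone marks about 1 in 20 such groups.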

How the results depend on the processing

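Between VGAT+PITX3 and VGAT plates, 6 of the 7 members called kept their direction and call in all 18 alternatives and Epha8 in 17, and the number of members called without 1 plate was 6 to 7. Between stages, 3 members were called, 7 without a filter on low counts, 1 on exonic counts, 0 with the replicate block, 0 on the plates whose labels give 1 stage, and 0 to 5 without 1 plate. Between Pax5 and Six3 cells, 2 were called, 0 with DESeq2, 5 without a filter, 0 on exonic counts, 1 without wells over 2 times the median count, 0 without the plate block, 5 with at least 2 marker counts, 0 on the plates whose labels give 1 stage, and 0 to 2 without 1 plate. Between Otx2 and Six3 cells, 4 were called, 10 without a filter, 1 on the plates whose labels give 1 stage, and 3 to 7 without 1 plate. Between Otx2 and Pax5 cells, 7 were called, 4 with DESeq2, 12 without a filter, 3 on exonic counts, 4 with at least 3000 genes per well, 3 without the plate block, 1 on the plates whose labels give 1 stage, and 3 to 7 without 1 plate. In the interaction, 0 were called and 1 without a filter (Robo1). The causes of these changes were not tested. None of the called members changed direction under an alternative that could be fitted, and RLE factors or DESeq2 moved the median of all genes by at most 0.015 (log2). The fit without a stage term and the plates whose labels give 1 stage were added after the data were seen.

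Over all genes, the calls ranged from 75 to 1592 between stages (615 in the reported fit), 625 to 1669 between sorts (1310), 0 to 66 in the interaction (0), 41 to 461 between Pax5 and Six3 cells (196), 67 to 571 between Otx2 and Six3 cells (270) and 78 to 642 between Otx2 and Pax5 cells (371), the highest each time without a filter on low counts. The labels do not say whether E16 and P0 plates with the same replicate number belong together. Deviations of plates with the same number correlated at 0.036, 0.056 and 0.035, and those with different numbers at -0.078 to 0.059. These values do not settle it. Not every plate correlated best with its own number. With the replicate number as a block, no member was called between stages (Robo1 at a log2 fold change of -0.99 and an adjusted p of 0.0965), 207 genes were called between stages and 906 between sorts. Leaving out a VGAT+PITX3 plate leaves the interaction without an estimate. The shares of cells gave 22 members in at least 10% of VGAT cells, 24 after thinning to 8000 counts and 25 without thinning. The 7 members with under 60 counts were low in libraries where the other 25 had over 300 counts each, and too low to be compared between groups except Robo3 between sorts and in the interaction. The 2 VGAT+PITX3 plates limit every statement on these cells.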
